A study of Mus musculus with 21 samples.

Results

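Mybl1, which encodes the MYB-family transcription factor A-MYB, and 9 germline genes (Dazl, Ddx4, Mael, Tdrd1, Stk31, Sycp1, Sycp3, Tex101 and Taf7l) were followed through inhibition of RNA polymerase I in mouse embryonic stem cells. The 10 genes were chosen by symbol from the 20900 genes of the deposited expression table, because earlier results of these data were known and because all had read support in untreated cells. They passed the filter on low values (10 of 10), with 105 to 1619 reads in each untreated library. The cells were E14, a single established line of 129 strain embryonic stem cells grown with serum and LIF. One group of 3 libraries was untreated (0 h). The other 6 groups of 3 libraries had 1 µM BMH-21 or 1 µM CX-5461 in the medium for 2, 4 or 8 h. Both compounds are small-molecule inhibitors of RNA polymerase I, the enzyme that transcribes the ribosomal RNA genes. The untreated libraries served as control for both inhibitors and every time, so comparisons with them share these 3 libraries, and no untreated culture was matched to 2, 4 or 8 h. The labels do not say whether the replicates were separate cultures, and p-values measure only the spread between these libraries.

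In the testis, A-MYB is known as a driver of genes of meiotic prophase and of the precursors of pachytene piRNAs, small RNAs that bind PIWI proteins and silence transposons. Dazl and Ddx4 encode RNA-binding proteins of germ cells. Mael, Tdrd1 and Stk31 encode proteins of the piRNA pathway or of germ granules, Sycp1 and Sycp3 encode parts of the synaptonemal complex that holds paired chromosomes together, Tex101 encodes a surface protein of germ cells and Taf7l a germ cell counterpart of a subunit of the general transcription factor TFIID. Embryonic stem cells hold many such genes at a low level through DNA methylation and a variant Polycomb complex with E2F6, MGA, MAX, PCGF6 and L3MBTL2, in which MGA and MAX bind E-boxes and E2F6 binds its own element.

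The promoters of the germline genes carried letters of those elements. The RefSeq promoter table (GRCm38.p6) held 9 of the 10 genes, without Mybl1. In the 250 bases upstream of a RefSeq start, the E-box CACGTG was present in 7 of the 9 genes (Mael, Ddx4, Tdrd1, Stk31, Sycp1, Sycp3 and Taf7l), against 6.02% of 32851 mouse promoters of the same length. The E2F6 element TCCCGC was present in 3 of the 9 (Mael, Ddx4 and Sycp3), against 16.9% of promoters, and the MYB element TAACNG in 1 of the 9 (Sycp1), against 19.8%. Both strands were searched, and no 2 of these motifs overlapped in the sequences shown. Stk31 and Tdrd1 have more than 1 start in the table, so a gene was counted where any of its promoters matched, whereas the shares count each promoter. The E-box and the E2F6 element each contain a CpG. Member promoters with an E-box held 11 to 31 CpG, beside a median of 6 over all promoters. Promoters of like CpG content were not compared, so the counts do not show an excess of a motif beyond CpG content. These matches are letters in a window and not measured binding sites. Of the promoters shown, Mael and Sycp3 hold an E-box and an E2F6 element, Sycp1 an E-box and the MYB element, and Taf7l an E-box alone. They span chr1:166238745-166238994 (minus strand, Mael), chr10:88459337-88459586 (plus strand, Sycp3), chr3:102936101-102936350 (minus strand, Sycp1) and chrX:134476491-134476740 (minus strand, Taf7l), and are written 5′ to 3′ with the motif matches in capitals.
Mael: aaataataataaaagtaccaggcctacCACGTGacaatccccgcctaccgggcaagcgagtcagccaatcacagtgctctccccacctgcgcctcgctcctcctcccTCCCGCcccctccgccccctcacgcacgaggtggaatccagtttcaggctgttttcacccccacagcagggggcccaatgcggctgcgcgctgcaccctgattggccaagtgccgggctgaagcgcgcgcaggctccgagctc
Sycp3: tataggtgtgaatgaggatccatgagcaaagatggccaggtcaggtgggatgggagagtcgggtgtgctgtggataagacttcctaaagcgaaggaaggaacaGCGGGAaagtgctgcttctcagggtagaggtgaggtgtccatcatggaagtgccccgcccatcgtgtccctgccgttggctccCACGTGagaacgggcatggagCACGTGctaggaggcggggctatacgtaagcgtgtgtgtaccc
Sycp1: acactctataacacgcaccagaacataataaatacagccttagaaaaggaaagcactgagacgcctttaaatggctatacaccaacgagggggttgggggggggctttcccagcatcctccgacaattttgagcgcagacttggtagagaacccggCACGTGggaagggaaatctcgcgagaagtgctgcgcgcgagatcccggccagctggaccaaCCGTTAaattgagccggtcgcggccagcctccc
Taf7l: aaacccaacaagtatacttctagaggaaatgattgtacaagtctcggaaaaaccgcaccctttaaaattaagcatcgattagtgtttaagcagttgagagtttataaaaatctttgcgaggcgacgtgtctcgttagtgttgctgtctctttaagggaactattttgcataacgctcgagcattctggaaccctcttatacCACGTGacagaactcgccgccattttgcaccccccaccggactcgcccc

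Mybl1 was more abundant in every treated library than in any untreated one, under both inhibitors and at every time. Mybl1 (ENSMUSG00000025912.16, mm10 chr1:9667415-9700209, minus strand, 16 exons in its longest protein-coding transcript) had deposited log2 values of 3.81, 3.71 and 3.60 in the untreated libraries, from 657, 594 and 574 reads. This scale is the log2 of normalised RPM (reads scaled to a common library size), with 0.5 added to the reads. Under BMH-21 the values were 5.32, 5.66 and 5.51 at 2 h, 5.88, 5.68 and 5.51 at 4 h, and 5.16, 4.73 and 5.36 at 8 h. All 9 BMH-21 libraries were thus above the highest untreated one, the 4 h libraries were highest on average, and the second 8 h library was the lowest of the 9. Under CX-5461 the values were 5.41, 5.26 and 5.26 at 2 h, 4.91, 5.31 and 5.01 at 4 h, and 4.67, 4.43 and 4.68 at 8 h. The CX-5461 libraries were highest on average at 2 h, and the 8 h libraries lay below all those of 2 h and 4 h but still above the untreated ones.

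The log2 change of Mybl1 against untreated was 1.79, 1.98 and 1.38 after 2, 4 and 8 h under BMH-21 (SE 0.12 each, n = 3 against 3), which are 3.46-fold, 3.95-fold and 2.60-fold higher levels. Under CX-5461 it was 1.60, 1.37 and 0.89 (SE 0.12 each), or 3.04-fold, 2.59-fold and 1.85-fold higher. These values helped to choose the gene and are given as a description, with no test. With each library centred on its own median the changes were 1.87, 2.13 and 1.59 under BMH-21 and 1.75, 1.53 and 0.67 under CX-5461, so the direction did not depend on the scaling. BMH-21 minus CX-5461 was 0.19, 0.61 and 0.49 for Mybl1 after 2, 4 and 8 h (log2, SE 0.12 each). At 2 h the libraries of the inhibitors overlapped. At 4 h and 8 h all BMH-21 libraries were above all CX-5461 libraries, and after centring the 8 h difference was 0.92.

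**Figure D1:**
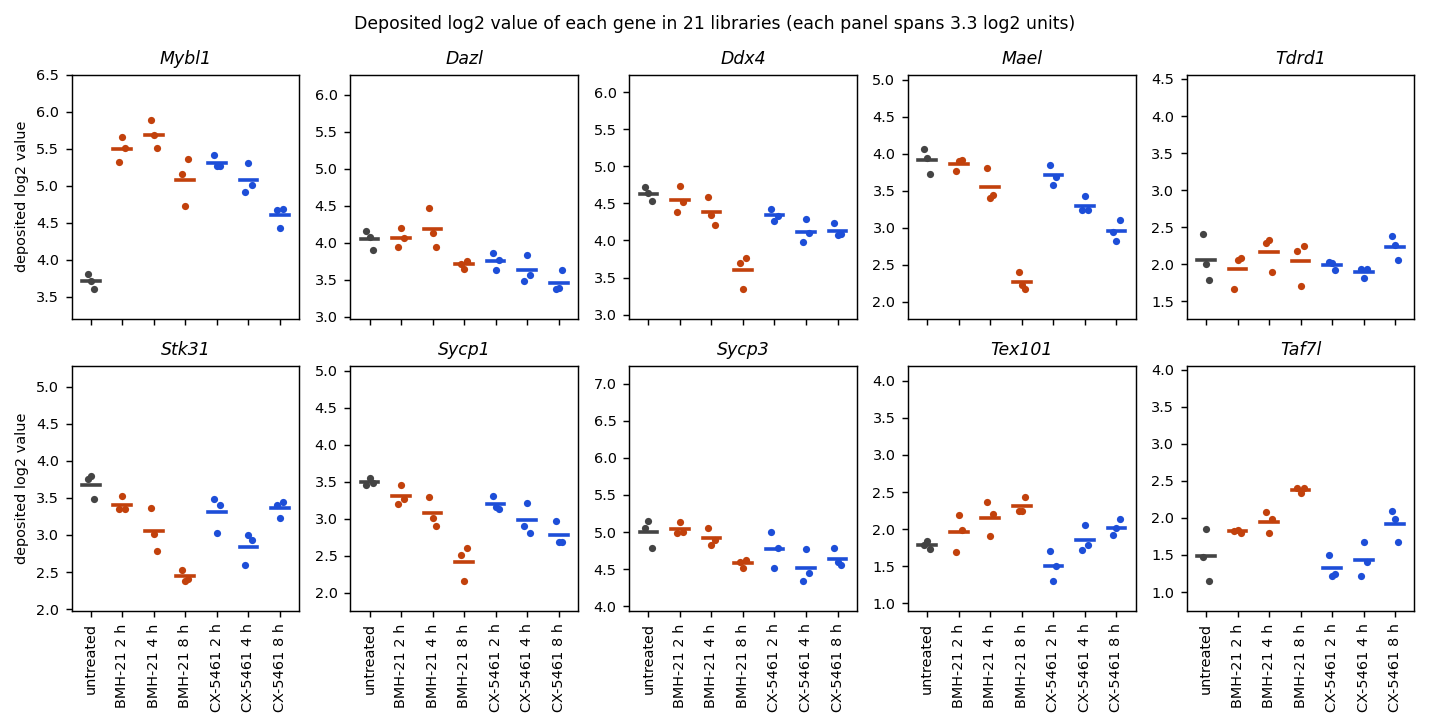
Deposited log2 value (y axis) of each of the 10 genes in the 21 libraries (points) by group (x axis), with the group mean as a line; grey is untreated, orange BMH-21 and blue CX-5461. All treated libraries lie above the untreated ones for Mybl1, whereas Mael at 8 h of BMH-21 lies between 2.17 and 2.40, below its untreated values of 3.73 to 4.06.

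Mybl1 was also set against the other 9 genes within each library, where the scaling cancels. Mybl1 minus the mean log2 value of the other 9 was 0.36 ± 0.07 (SD, n = 3) in untreated cells. It was 2.17 ± 0.05, 2.42 ± 0.06 and 2.22 ± 0.21 at 2, 4 and 8 h of BMH-21, and 2.21 ± 0.07, 2.12 ± 0.06 and 1.54 ± 0.11 at 2, 4 and 8 h of CX-5461. The lowest treated library, at 8 h of CX-5461, had 1.42, and the highest untreated library had 0.42. A difference of this kind shows unequal change among the genes and does not say which of them moved.

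**Figure D2:**
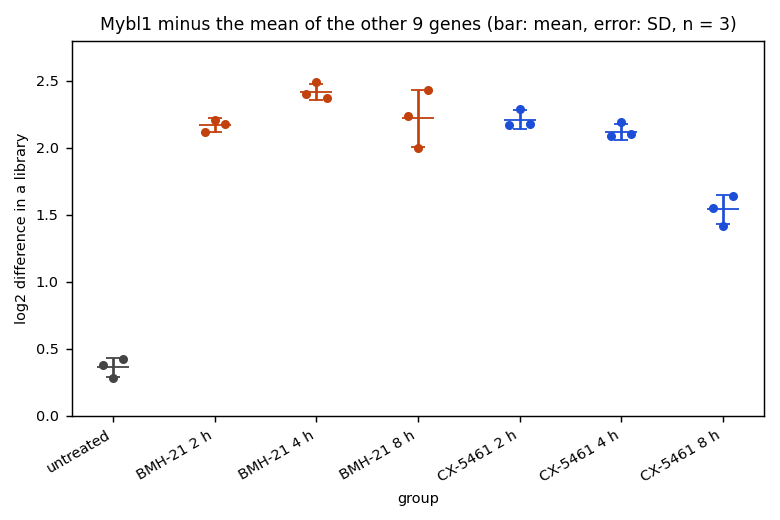
Mybl1 minus the mean of the other 9 genes in each library (y axis, log2 difference) by group (x axis); points are libraries, horizontal bars the group means and error bars the SD (n = 3). Untreated libraries lie between 0.28 and 0.42 and treated libraries between 1.42 and 2.49.

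Of the 10 genes, 1 (Mybl1) was called higher and 0 lower than untreated at 2 h of BMH-21, where 8.48% of all 14666 genes tested were called higher and 11.2% lower (limma, adjusted p under 0.05). At an unadjusted p under 0.05 these counts of members were 2 and 1. At 4 h of BMH-21 the counts were 3 and 3 (22.1% and 44.9% of all genes), and at 8 h 3 and 6 (24.5% and 56.9%). For CX-5461 they were 1 and 2 at 2 h (7.45% and 20.5%), 1 and 6 at 4 h (19.8% and 51.2%), and 2 and 6 at 8 h (35.1% and 14.3%). The genes were selected on values of these contrasts, so nothing is read from the counts. They were also unsteady: the 2 called lower at 2 h of CX-5461 became 0 without untreated replicate 1 or 2 or CX-5461 replicate 2, and 5 without CX-5461 replicate 1. The background itself moved with the scaling. The median change of all genes tested was -0.07, -0.21 and -0.40 at 2, 4 and 8 h of BMH-21 and -0.18, -0.28 and 0.11 under CX-5461 as deposited. With median-ratio factors, which set each library by the typical gene, it lay between -0.04 and 0.01. Changes of the 10 genes are therefore also given after centring each library on its median where the 2 scales part. For most other genes only the deposited scale is given. At 8 h of CX-5461 centring took the median change of all genes from 0.11 to -0.11. A deposited value near 0 there, such as those of Prdm14, Rnf17, Myb, L3mbtl2 and Max below, thus does not by itself show a return to the untreated level.

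**Figure D3:**
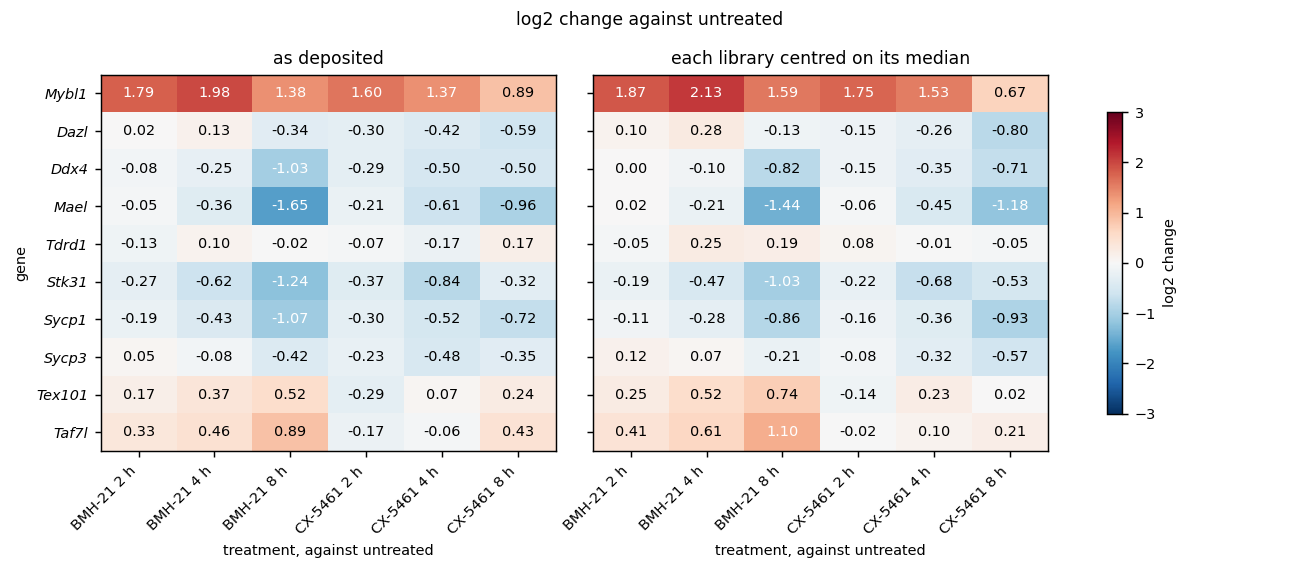
log2 change against untreated (colour and printed value) of the 10 genes (rows) in the 6 treated groups (columns), as deposited on the left and with each library centred on its median on the right. Mybl1 is positive throughout, and Mael, Ddx4, Stk31 and Sycp1 are at or below -0.82 at 8 h of BMH-21 on both scales.

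The RNA-binding protein genes were lower at 8 h on the deposited scale. Ddx4, an RNA helicase gene also known as Vasa, had log2 values of 4.72, 4.64 and 4.53 in untreated cells, 3.69, 3.34 and 3.77 at 8 h of BMH-21 and 4.23, 4.07 and 4.09 at 8 h of CX-5461. Both 8 h groups lay below the untreated libraries, with log2 changes of -1.03 and -0.50 (SE 0.12 each). After centring they were -0.82 and -0.71. BMH-21 minus CX-5461 for Ddx4 at 8 h was -0.53 as deposited and -0.11 after centring, so its size depended on the scaling. Dazl, whose product regulates translation in germ cells, had untreated values of 4.16, 4.08 and 3.90. With 8 h of BMH-21 its values were 3.71, 3.65 and 3.75, a log2 change of -0.34 (SE 0.12) as deposited. It was -0.13 once libraries were centred and 0.01 when median-ratio factors were used, so the direction of Dazl there depended on the scaling. At 8 h of CX-5461 they were 3.37, 3.39 and 3.63, all below the untreated ones, with a log2 change of -0.59 (-0.80 after centring).

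Among the genes of the piRNA pathway and germ granules, Mael was lowest against its untreated level at 8 h. Its untreated values were 4.06, 3.95 and 3.73 (783, 703 and 630 reads). At 4 h of BMH-21 they were 3.81, 3.40 and 3.45, and at 8 h 2.40, 2.23 and 2.17 (317, 404 and 281 reads), so the 8 h libraries stood below all others. The log2 change of Mael was -0.05, -0.36 and -1.65 at 2, 4 and 8 h of BMH-21 (SE 0.12 each), the last being 3.14-fold lower, and -0.21, -0.61 and -0.96 under CX-5461. The 8 h values remained negative after centring (-1.44 and -1.18).

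Stk31, which encodes a testis kinase with a tudor domain, had untreated values of 3.75, 3.79 and 3.49 and values of 2.53, 2.38 and 2.40 at 8 h of BMH-21, a log2 change of -1.24 (SE 0.13). Under CX-5461 it was lowest at 4 h (2.59, 3.00 and 2.93) and higher again at 8 h (3.41, 3.23 and 3.45), with log2 changes of -0.84 and -0.32. After centring these were -0.68 and -0.53, so the size of the return at 8 h depended on the scaling. Tdrd1, a tudor-domain gene that binds PIWI proteins, had the fewest reads per length. Its untreated values were 2.41, 2.00 and 1.78. No treated group was separated from them, and its changes lay between -0.17 and 0.17 (SE 0.15), with signs that depended on the scaling.

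The synaptonemal complex genes differed from each other in size of change. Sycp1, which encodes the transverse filament, had untreated values of 3.46, 3.55 and 3.48, 2.51, 2.16 and 2.61 at 8 h of BMH-21, and 2.97, 2.69 and 2.69 at 8 h of CX-5461. All treated libraries of 8 h were below the untreated ones, with log2 changes of -1.07 and -0.72 (SE 0.13 each). The order of the inhibitors was not fixed, since BMH-21 minus CX-5461 was -0.36 on the deposited scale but 0.07 once libraries were centred, 0.11 by median-ratio factors and 0.03 by quantile normalization. Sycp3, an axial element gene, had untreated values of 5.05, 5.15 and 4.78, 4.60, 4.52 and 4.62 at 8 h of BMH-21 and 4.78, 4.59 and 4.56 at 8 h of CX-5461. Its log2 changes were -0.42 and -0.35 (SE 0.12 each), and after centring -0.21 and -0.57. At 8 h of BMH-21 Sycp3 was at -0.06 by median-ratio factors, so its change there was nearly gone on that scale. Exons of Sycp3 share 660 of 1264 bases with Chpt1 on the other strand. Whether strand was used in counting is not given in the sources used here, so reads of Chpt1 cannot be told apart from those of Sycp3.

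Tex101 and Taf7l went the other way at 8 h of BMH-21. Tex101 had untreated values of 1.79, 1.84 and 1.73, and 2.25, 2.25 and 2.43 at 8 h of BMH-21, all above the untreated libraries, with a log2 change of 0.52 (SE 0.15) and 0.74 after centring. At 8 h of CX-5461 it was 1.92, 2.02 and 2.13, a change of 0.24 that was 0.02 after centring. Taf7l had untreated values of 1.47, 1.85 and 1.15, the widest untreated spread of the 10 genes (SD 0.35), and 2.41, 2.33 and 2.41 at 8 h of BMH-21. These were above the untreated libraries, with a log2 change of 0.89 (SE 0.16; 1.10 after centring). At 8 h of CX-5461 Taf7l had 2.09, 1.99 and 1.68, which overlapped the untreated range, with a change of 0.43 as deposited and -0.13 after quantile normalization, so its sign there depended on the scaling. Both genes had at most 163 reads in an untreated library, and their changes are less precise than those of Sycp3 or Ddx4.

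Set directly against each other at matched dose and time, the inhibitors gave 1 of the 10 genes called higher and 0 lower under BMH-21 at 2 h, where 2.47% and 1.52% of all genes were (limma; 4 and 0 at an unadjusted p under 0.05). At 4 h the counts were 4 and 0 (9.35% and 8.49%; 7 and 0 unadjusted), and at 8 h 2 and 4 (12.0% and 67.2%). The split at 8 h turned with the scaling, to 5 higher and 2 lower, both by median-ratio factors and once libraries were centred. Over all 14666 genes it was then 5044 to 5338 and 4559 to 5954. Centring also moved the 4 h split, to 7 and 0, beside 4012 and 2707 of all genes. Taf7l was above its CX-5461 libraries in all BMH-21 libraries at 2, 4 and 8 h, by 0.50, 0.52 and 0.46 (log2, SE 0.16 each). Dazl was likewise above at each time, by 0.32, 0.55 and 0.24 (SE 0.12 each). At 8 h Stk31 and Mael were below in all BMH-21 libraries, by 0.92 and 0.69 on the log2 scale as deposited, and after centring their differences were -0.50 and -0.26. The median of all genes differed by -0.48 at 8 h on the deposited scale, and by -0.06 after centring.

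Per length, the levels of the 10 genes in untreated cells spanned a wide range. Normalised RPKM, the same reads also divided by exon length in kb, was 25.4 for Sycp3 (21.8 to 28.2 over the 3 libraries), 8.75 for Mael and 8.22 for Ddx4. Mael and Ddx4 did not differ beyond their spread (7.68 to 9.65 and 7.65 to 8.73). Dazl (4.35) and Stk31 (3.97) overlapped as well, and were followed by Sycp1 (3.18), Mybl1 (2.42) and Tex101 (2.08), whose libraries did not overlap with those of their neighbours. Taf7l had 1.27 and Tdrd1 0.781, below the others.
Mybl1 was thus the 7th of the 10 genes by level per length in untreated cells. It was the 2nd at 4 h of BMH-21, with 9.60 (8.43 to 10.9), and the 2nd at 8 h, with 6.38 (4.92 to 7.61). Mybl1 and Mael both had 4.49 at 8 h of CX-5461. Sycp3 stayed highest in all 7 groups, with the limit given above for its shared bases.

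**Figure D4:**
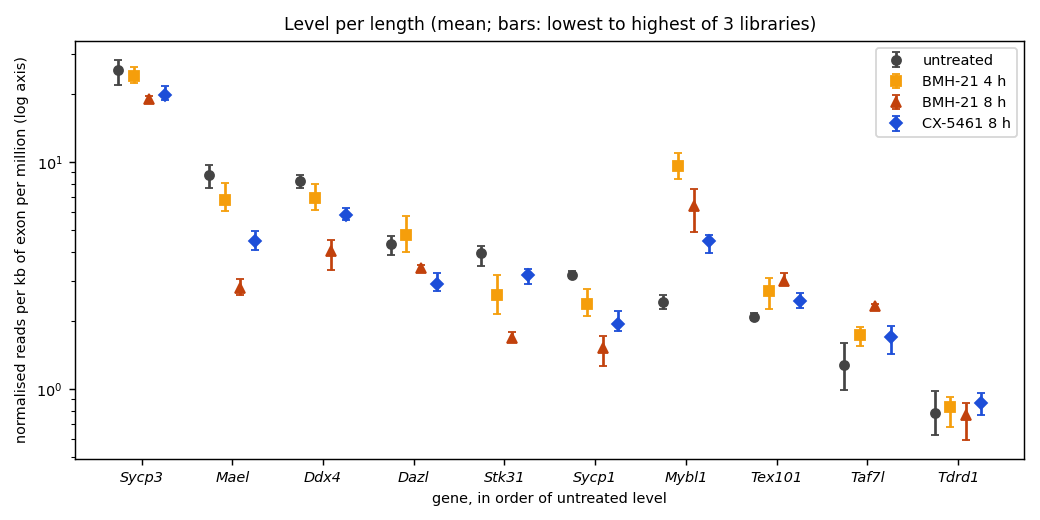
Level of each gene per length (y axis, normalised RPKM, log axis) in untreated cells, at 4 h and 8 h of BMH-21 and at 8 h of CX-5461; points are means and bars run from the lowest to the highest of 3 libraries, with genes on the x axis in order of untreated level. Mybl1 moves from 2.42 untreated to 9.60 at 4 h of BMH-21, while Mael goes from 8.75 untreated to 2.78 at 8 h.

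A wider set of germline genes held members called in both directions, in shares mostly near those of all genes tested. Lists of piRNA pathway and nuage genes, meiotic prophase genes, and germ cell identity and gamete genes held 117 genes besides the 10 above, of which 109 were matched in the table and 84 were tested; the other 25 were below the filter. The filter used all 21 libraries, so the 84 include genes that passed only with treated libraries, among them Tdrd9, Ccdc79, Dpep3, Izumo1 and Tex13. The counts of rises therefore hold genes admitted through their own rise, and the same filter set the 14666 genes tested. Of the 84, 8 rose and 7 fell at 2 h of BMH-21, 15 rose and 35 fell at 4 h, and 15 rose and 45 fell at 8 h (limma, adjusted p under 0.05). For CX-5461, 4 rose and 15 fell at 2 h, 12 rose and 46 fell at 4 h, and 22 rose and 14 fell at 8 h. At 8 h of BMH-21 these are 17.9% and 53.6% of the 84, beside 24.5% and 56.9% of all genes tested, and at 8 h of CX-5461 26.2% and 16.7%, beside 35.1% and 14.3%. At 4 h they are 17.9% and 41.7% under BMH-21 (22.1% and 44.9% of all genes) and 14.3% and 54.8% under CX-5461 (19.8% and 51.2%). At 2 h they are 9.52% and 8.33% under BMH-21 (8.48% and 11.2% of all genes) and 4.76% and 17.9% under CX-5461 (7.45% and 20.5%). Their median log2 change at 8 h was -0.34 under BMH-21 and 0.11 under CX-5461, beside -0.40 and 0.11 for all genes tested. With median-ratio factors 32 rose and 38 fell at 8 h of BMH-21, beside 5753 and 6352 of all 14666 genes. At 8 h of CX-5461 23 rose and 28 fell on that scale, beside 5158 and 5174. After centring the splits were 26 to 41 and 21 to 35, beside 4884 to 7523 and 4301 to 6550 over all genes. At 4 h the splits with median-ratio factors were 26 to 30 under BMH-21 and 20 to 31 under CX-5461, beside 5043 to 5687 and 4885 to 5349. At 2 h they were 8 to 13 and 7 to 12, beside 2823 to 2420 and 2756 to 1881 over all genes. At 2 h of BMH-21 the 7 that fell became 4, 3 and 12 without untreated replicates 1, 2 and 3, and 3 without BMH-21 replicate 1. The count of 19 genes at 2 h of CX-5461 was 31 without untreated replicate 3 and 30 without CX-5461 replicate 1. Between the inhibitors, 6 of the 84 were higher and 58 lower under BMH-21 at 8 h as deposited (7.14% and 69.0%, beside 12.0% and 67.2% of all genes). With median-ratio factors 25 were higher and 29 lower, beside 5044 and 5338 of all genes.

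Of the 21 piRNA pathway and nuage genes tested, 6 rose and 11 fell at 8 h of BMH-21, and 7 rose and 3 fell at 8 h of CX-5461. These were 28.6% and 52.4%, and 33.3% and 14.3%, of the list, near the shares of all genes tested. With median-ratio factors the splits were 9 to 8 and 7 to 7, beside 5753 to 6352 and 5158 to 5174 over all genes. Genes named from this list and the next 2 had the largest changes at 8 h among called genes without overlap, for at least 1 inhibitor. Their 8 h p-values and lack of overlap were conditions of that choice and give no added support. Tex15, which is known for its part in piRNA-directed silencing, rose with both. Its untreated log2 values were 2.84, 2.97 and 2.66, and at 8 h they were 5.22, 4.71 and 5.35 under BMH-21 and 4.52, 4.45 and 4.30 under CX-5461, with no overlap. The log2 change of Tex15 was 0.64, 1.87 and 2.27 at 2, 4 and 8 h of BMH-21 and 0.42, 1.88 and 1.61 under CX-5461 (SE 0.12 each; limma adjusted p at 8 h = 1.5e-36 and 5.5e-24, all 3 treated above all 3 untreated libraries).
Tdrd5, a tudor-domain gene of germ granules, had 2.26, 2.15 and 1.94 untreated, 4.77, 4.58 and 4.97 at 8 h of BMH-21 and 3.17, 3.24 and 3.21 at 8 h of CX-5461, with log2 changes of 2.66 and 1.09 (SE 0.13 each; limma adjusted p = 5.6e-40 and 1.4e-12). The tudor-domain gene Tdrd7 rose as well, by 1.33 and 1.54 (SE 0.17 each; limma adjusted p = 4.4e-12 and 2.5e-14). The log2 change of Tdrd9, also a tudor-domain gene, was 2.43 and 1.72 (SE 0.23 each) from 15 to 36 reads in an untreated library. Its untreated values were all below 0 (-1.55 to -0.38). Tdrd9 thus passed the filter through treated libraries only, and its change is a description with no test. Tdrd9 remains among the 21 genes and in the rises counted above at 8 h of each inhibitor. Tdrd12 fell with both (log2 change -1.37 and -0.63, SE 0.11 each; limma adjusted p = 6.3e-22 and 1.1e-06), as did Mov10l1, a helicase gene of piRNA biogenesis (-0.77 and -0.43), and Pld6, a mitochondrial phospholipase gene (-0.93 and -0.42). Rnf17 fell under BMH-21 (-1.27, SE 0.11; limma adjusted p = 3.7e-20) and had -0.24 under CX-5461 (limma adjusted p = 0.07).

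Of the 33 meiotic prophase genes tested, 3 rose (Rec8, Rec114 and Hormad1) and 18 fell at 8 h of BMH-21, and 7 rose and 4 fell (Ccnb1ip1, Mei4, Hormad2 and Syce2) at 8 h of CX-5461. With median-ratio factors the splits were 12 to 15 and 7 to 13, beside 5753 to 6352 and 5158 to 5174 over all genes. As deposited, 9.09% of the list rose and 54.5% fell at 8 h of BMH-21, beside 24.5% and 56.9% of all genes, and 21.2% rose and 12.1% fell at 8 h of CX-5461, beside 35.1% and 14.3%. Rec8, the meiotic cohesin subunit, rose at 8 h by 1.21 under BMH-21 and 1.53 under CX-5461 (log2, SE 0.11 each; limma adjusted p = 2.5e-18 and 2.1e-24). Its untreated libraries had 4.19, 4.14 and 3.76, and the 8 h libraries 5.26, 5.10 and 5.36 and 5.59, 5.56 and 5.53. Rec114, which is needed for meiotic double-strand breaks, rose by 1.13 and 1.09, and Hormad1, a chromosome axis gene, by 0.78 and 0.62. Ccnb1ip1 (-1.58 and -0.39), Mei4 (-1.54 and -0.67), Hormad2 (-1.51 and -0.50) and Syce2 (-1.27 and -0.41) fell under BMH-21 and CX-5461 at 8 h. Ccdc79, the older name of Terb1, had a log2 change of 1.18 (SE 0.30) at 8 h of CX-5461. Under BMH-21 the change was 0.31 at 8 h, and -0.38 after quantile normalization. It had 24 to 41 reads in an untreated library. Its values were above 0 in the 3 libraries at 8 h of CX-5461 (0.31 to 0.70) and the third at 8 h of BMH-21 (0.06), and in no other. Ccdc79 thus passed the filter through the group where it was high, so its change is a description with no test. It remains among the 33 genes and is 1 of the 7 that rose at 8 h of CX-5461.

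Of the 30 germ cell identity and gamete genes tested, 6 rose and 16 fell at 8 h of BMH-21 and 8 rose and 7 fell at 8 h of CX-5461. With median-ratio factors the splits were 11 to 15 and 9 to 8, beside 5753 to 6352 and 5158 to 5174 over all genes. Beside these stand 24.5% higher and 56.9% lower of all genes at 8 h of BMH-21, against 53.3% of the list lower, and 35.1% and 14.3% at 8 h of CX-5461, against 26.7% and 23.3% of the list. Dpep3, a membrane dipeptidase gene of the testis, had log2 values of -0.07, 0.12 and -0.46 in untreated cells, from 34 to 49 reads, and 4.69, 4.79 and 4.85 at 8 h of BMH-21, from 1544 to 2395 reads. Its log2 change was 0.86, 3.61 and 4.91 at 2, 4 and 8 h of BMH-21 and 1.40, 3.49 and 3.58 under CX-5461 (SE 0.15 each), and no treated library overlapped the untreated ones. Dpep3 protein is known to be held at the germ cell surface together with the product of Tex101, whose own values are given above. Hspa2, a heat shock protein gene of spermatocytes, rose by 1.11 and 1.25, and Izumo1, a sperm-egg fusion gene, by 1.00 and 1.24 from 24 to 29 untreated reads. Tex13, an older name of Tex13b, rose by 2.25 and 1.14 from 10 to 19 untreated reads, and its CX-5461 value was -0.55 after quantile normalization. The untreated values of Izumo1 and Tex13 were all below 0 (at most -0.67 and -1.26), so both passed the filter through treated libraries only. Dpep3, with the untreated values given above, also needed treated libraries to pass. The rises of Dpep3, Izumo1 and Tex13 are therefore a description with no test. They remain among the 30 genes. The rises counted above at 8 h include Dpep3 and Tex13 for BMH-21, and Dpep3 and Izumo1 for CX-5461.
Prdm14, a regulator of primordial germ cells and of naive pluripotency, differed between the inhibitors. Its untreated values were 4.72, 4.74 and 4.63. With BMH-21 it had 1.47, 1.49 and 1.49 at 4 h and 2.08, 1.58 and 1.50 at 8 h, and under CX-5461 2.19, 2.46 and 2.24 at 4 h and 4.66, 4.60 and 4.60 at 8 h. The log2 change of Prdm14 was -1.14, -3.21 and -2.98 at 2, 4 and 8 h of BMH-21 and -0.91, -2.40 and -0.08 under CX-5461 (SE 0.12 each; limma adjusted p at 8 h = 8.3e-47 and 0.64). BMH-21 minus CX-5461 was -2.90 at 8 h (limma adjusted p = 6.7e-44, all 3 BMH-21 libraries below). Zp3, a gene of the egg coat, fell by 2.24 under BMH-21 and by 0.48 under CX-5461. Dmrt1 (-1.73 and -1.44), Kit (-1.19 and -0.94) and Dppa3 (-1.17 and -0.65), each known from germ cell development, fell with both.

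**Figure D5:**
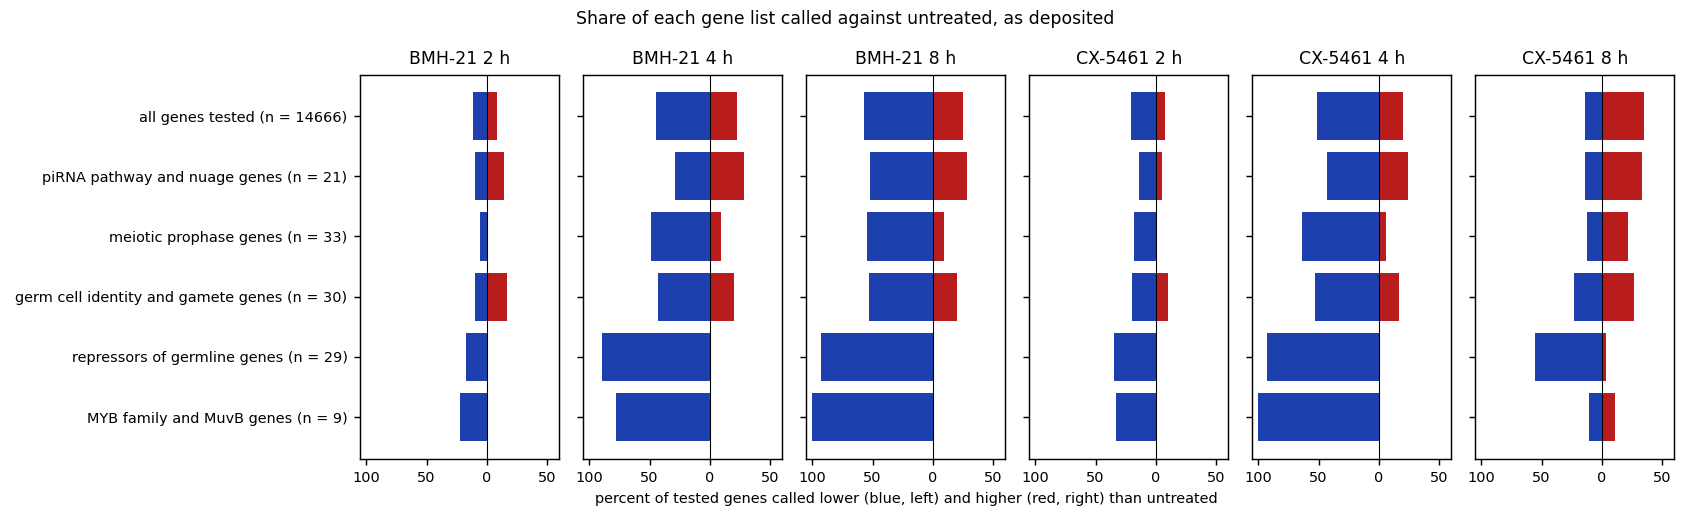
Percent of the tested genes of each list (rows, with n) called lower (blue, to the left of 0) and higher (red, to the right of 0) than untreated in each treated group (panels), on the deposited scale (limma, adjusted p under 0.05). The last list also holds Foxm1 and Tcfl5. The germline lists have bars on both sides at 4 and 8 h (the meiotic prophase list has none to the right at 2 h), and the repressor list lies almost wholly to the left, with 27 of 29 genes lower at 8 h of BMH-21.

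Genes that are known to hold germline genes at a low level were mostly lower at 4 and 8 h. Of 29 such genes, 0 rose and 5 fell at 2 h of BMH-21, 0 rose and 26 fell at 4 h, and 0 rose and 27 fell at 8 h (limma, adjusted p under 0.05). For CX-5461 the counts were 0 and 10, 0 and 27, and 1 and 16. Lower calls were thus 17.2%, 89.7% and 93.1% of the list under BMH-21, beside 11.2%, 44.9% and 56.9% of all genes tested, and 34.5%, 93.1% and 55.2% under CX-5461, beside 20.5%, 51.2% and 14.3%. At an unadjusted p under 0.05 the genes above untreated numbered 1, 0 and 0 at 2, 4 and 8 h of BMH-21 and 0, 0 and 1 for CX-5461. The 1 that rose was Ring1 (0.30, SE 0.12; limma adjusted p = 0.032), named after its value was seen. The 2 h counts rested on single libraries: the 5 became 1 without untreated replicate 1 or 2 or BMH-21 replicate 1 and 2 without BMH-21 replicate 3, and the 10 became 3 without untreated replicate 2 and 19 without CX-5461 replicate 1. The median change of the list at 8 h was -0.93 under BMH-21 and -0.31 under CX-5461, beside -0.40 and 0.11 for all genes tested. With median-ratio factors, 2 rose and 25 fell at 8 h of BMH-21 (median -0.57), beside 5753 and 6352 of all 14666 genes tested. At 8 h of CX-5461, 0 rose and 23 fell on that scale (median -0.43), beside 5158 and 5174 of all genes. The de novo DNA methyltransferase gene Dnmt3b fell by 0.70 and 2.44 at 4 and 8 h of BMH-21, and by 0.83 and 1.13 under CX-5461 (log2, SE 0.10 each; limma adjusted p at 8 h = 5.3e-46 and 1.8e-18).
The histone methyltransferase gene Setdb1 fell by 1.30 and 0.35 at 8 h of BMH-21 and CX-5461. Of the Polycomb complex genes, Pcgf6 fell by 1.43 and 0.34 at 8 h of BMH-21 and CX-5461, and Mga by 1.01 and 0.33. L3mbtl2 and Max fell at 8 h of BMH-21 (-0.93 and -0.74), and had -0.16 and -0.02 at 8 h of CX-5461 (limma adjusted p = 0.21 and 0.90). Calls at 8 h of CX-5461 depended on the scaling. As deposited 16 of the 29 genes were called lower there, beside 2091 of all genes. After centring 24 of the 29 were, beside 6550 of all genes. Dnmt3a fell by 1.01 at 8 h of BMH-21 and had -0.03 at 8 h of CX-5461, the latter 0.19 after quantile normalization. Max and Dnmt3a had passed the test at 4 h of CX-5461 (-0.88 and -0.78). E2f6 and the maintenance methyltransferase gene Dnmt1 had -0.30 and -0.28 at 8 h of BMH-21 as deposited, and 0.05 and 0.08 with median-ratio factors, so their direction depended on the scaling. At 4 h of CX-5461, E2f6 fell by 0.52 (SE 0.11; limma adjusted p = 1.8e-05).

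The relatives of Mybl1 were lower in most treated groups. Myb fell by 0.95, 2.57 and 1.13 at 2, 4 and 8 h of BMH-21, and by 0.82 and 1.62 at 2 and 4 h of CX-5461 (log2, SE 0.14 each; limma adjusted p at 4 h = 5.3e-35 and 1.1e-19), with -0.17 at 8 h of CX-5461 (limma adjusted p = 0.34). Mybl2, the B-MYB gene of dividing cells, had -0.13 and -0.23 at 2 h and fell by 0.66 and 1.34 at 4 and 8 h of BMH-21 and by 0.74 and 0.45 under CX-5461 (SE 0.10 each). A list of 9 tested genes held Myb, Mybl2, 5 subunits of the MuvB complex that Mybl2 joins, and the transcription factor genes Foxm1 and Tcfl5. Of these, 9 fell at 8 h of BMH-21 and at 4 h of CX-5461 as deposited, where 56.9% and 51.2% of all genes fell. With median-ratio factors 7 and 6 fell, beside 6352 and 5349 of all 14666 genes. Of these 9, Mybl2 fell and Lin54, named after its value was seen, was at 0.26 (limma adjusted p = 0.049) at 8 h of CX-5461. As deposited, 11.1% of the list was called in each direction there, beside 35.1% higher and 14.3% lower of all genes. With median-ratio factors 1 rose and 6 fell at 8 h of CX-5461, beside 5158 and 5174 of all genes. Without untreated replicate 1, 2 or 3, 0 of the 9 were called higher there.

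The genes whose pattern over the 7 group means was most like that of Mybl1 were none of the other 9. Among 6599 tested genes whose group means spanned at least 1 log2 unit, the 4 reported are Wfikkn1 (Pearson r 0.987), Gdf15 (0.981), 4933428G20Rik (0.97) and Plk2 (0.965), over 7 group means that share libraries and scaling. Of the other 9 genes, Dazl, Tdrd1, Sycp3 and Tex101 spanned less than 1 log2 unit and so were not candidates. Taken for all 9 whatever their span, the r with Mybl1 ran from -0.45 (Stk31) to 0.23 (Taf7l). Gdf15 encodes a secreted stress-responsive cytokine and Plk2 a polo-like kinase. The log2 change of Gdf15 was 2.78, 3.01 and 2.61 at 2, 4 and 8 h of BMH-21 and 2.49, 2.20 and 1.68 under CX-5461 (SE 0.13). That of Plk2 was 3.32, 3.67 and 3.31, and 3.22, 2.81 and 2.36 (SE 0.11). Wfikkn1 and 4933428G20Rik had 11 to 32 reads in an untreated library, and their changes at 8 h of CX-5461, 1.05 and 0.86 as deposited, were -0.38 and -0.20 after quantile normalization. These genes were picked by their pattern and carry no test.

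Markers of cell identity differed between the same groups. The 10 embryonic stem cell markers were all detected, and their summed level was 6310 to 7190 normalised RPM in untreated libraries, 3650 to 4400 at 4 h of either inhibitor, 2980 to 3180 at 8 h of BMH-21 and 5660 to 6070 at 8 h of CX-5461. Of the markers of 2-cell-like cells, a rare state in such cultures, 11 of 12 were in the table, none at 0 in a whole group. They summed to 21.0 to 24.0 untreated, 90.5 to 125 at 8 h of BMH-21 and 57.9 to 66.0 at 8 h of CX-5461. At 4 h the sums were 27.7 to 36.8 under BMH-21 and 21.6 to 27.8 under CX-5461. At 2 h they were 21.8 to 28.1 under BMH-21, with 9 of 11 means above untreated. Under CX-5461 at 2 h they were 20.2 to 23.0, with 1 of 11 means above untreated. Fibroblast feeder markers (8 of 8 in the table, of which 5 to 7 had over 3 reads in each library of a group) had 32.4 to 36.8 untreated, 39.5 to 66.3 at 4 h and 46.6 to 56.0 at 8 h. Of these 8, 4 had a mean above and 4 below untreated at 8 h of BMH-21: Col1a1 (mean log2 3.15 untreated, 5.01 at 8 h) and Pdgfra (1.15 and 3.15) were higher, and Thy1 (4.48 and 3.07) and Dcn (-1.83 and -3.66) lower. Markers of differentiated derivatives (9 of 9) had 18.4 to 24.9 untreated, 13.6 to 15.7 at 8 h of BMH-21 and 23.2 to 23.6 at 8 h of CX-5461. Pax6 was lower at 8 h of BMH-21 (3.26 untreated, 0.22), while 5 of the 9, among them Cdx2 (-0.34 and 1.02) and Gata6 (1.12 and 1.77), had a mean above untreated. Gonadal somatic markers (7 of 8 in the table) had 12.8 to 14.7 untreated, 16.9 to 20.8 at 2 h of BMH-21, with 7 of 7 means above untreated, and 12.7 to 15.5 at 8 h. Most of this sum was Star (3.64 untreated, 3.50 at 8 h of BMH-21). The gonadal genes Nr5a1, Cyp17a1 and Foxl2 had 0 to 5 reads in an untreated library and 38 to 81, 47 to 49 and 46 to 50 at 8 h of BMH-21. Of the 7 gonadal markers, 4 had a mean above and 3 below untreated there. Amh (mean log2 -1.06 untreated, -2.25 at 8 h of BMH-21) and Inha (-1.47 and -2.34) were lower. The part of these shifts in the values of the germline genes was not tested. In these bulk libraries, more cells with a transcript and more of it per cell cannot be told apart.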

How the data were processed

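The 21 libraries were poly(A) RNA prepared with a directional kit, per the labels' protocols, and grouped by title, with 3 per group and 0 table columns left unmapped. The deposited values are log2 expression, normalised by the authors with voom per the file's name. Trim Galore 0.5.0, TopHat2 2.1.1, R 4.0.5, DESeq2 1.30.1, edgeR 3.32.1, limma 3.46.0 and the build mm10 are listed, with no role, in the submitters' processing notes. The annotation used and the handling of strand are not given in the sources used here. With an offset of 0.5 each value gave whole reads to within 1.8e-08. Depth was 46604397 to 62812641 reads per library. The implied scaling factors ran from 0.832 to 1.375 and their origin is not given in the sources used here.

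With limma 3.58.1 in R 4.3.3, a linear model of 1 mean per group over the 21 libraries, with a variance trend and Benjamini-Hochberg adjustment was fitted to the 14666 genes with a log2 value above 0 in at least 3 libraries, two-sided, at 0.05; 6234 genes were not tested. The fit was tested on simulated data. The variance prior carried 111.5 degrees of freedom and the libraries 14, so the spread of a single gene had little weight. Fold changes include the offset and understate those of low genes.

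The genes described and the lists were chosen with earlier results of these data known. Named genes were the 10 genes, the 3 largest rises and 3 largest falls of each germline list at 8 h with each inhibitor among called genes whose libraries did not overlap, a fixed set of regulators, and the 5 genes most like Mybl1, of which 1 is not reported here. Older symbols were matched through RefSeq synonyms; 8 listed germline genes are not analysed here. Positions and exons come from GENCODE on mm10, and promoters from RefSeq. The alternatives tried were other scalings (centring, median-ratio factors, quantile normalization), filters, an offset of 5 reads, other variance models, voom weights, only the groups compared, a replicate block and leaving out each library. Same-numbered libraries of different groups had deviations correlated at -0.25 to 0.11 over 63 pairs, so the numbers were not taken to pair them.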

Additional observations from a re-analysis of the deposited data

Results flagged for a closer look

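The effects of the inhibitors against the shared untreated group differed at 8 h for 8 of the named germline genes by at least 1 log2 unit, by the limma test of BMH-21 against CX-5461. These genes were kept for that size and an adjusted p under 0.05 in this contrast, so the p-values below describe the choice and are no support. Of all genes tested, 12.0% were called higher and 67.2% lower there, with a median difference of -0.48. The share of all genes that differed by 1 log2 unit is not given here. BMH-21 minus CX-5461 was 1.57 for Tdrd5 (limma adjusted p = 5.5e-21), 1.34 for Dpep3 and 1.11 for Tex13, with all 3 BMH-21 libraries above all 3 CX-5461 libraries. Dpep3 and Tex13 needed treated libraries to pass the filter, so their differences are a description with no test. BMH-21 minus CX-5461 was -2.90 for Prdm14 (limma adjusted p = 6.7e-44), -1.77 for Zp3 (2.1e-26), -1.19 for Ccnb1ip1 (1.3e-17), -1.03 for Rnf17 (9.3e-15) and -1.01 for Hormad2 (9.5e-12), with all 3 BMH-21 libraries below. After centring each library, the positive differences were larger (2.00, 1.76 and 1.54) and the negative ones smaller (-2.47, -1.34, -0.77, -0.61 and -0.58), in the same order of genes.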

How the results depend on the processing

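The scaling of the libraries set most of the limits. The refits covered 232 gene changes, including some of the 10 genes that are not printed above. Over these, 3925 refits under alternatives gave 82 changes of sign, 11 of them of values called as deposited. With median-ratio factors the log2 change at 8 h of BMH-21 was 0.01 for Dazl, 0.05 for E2f6 and 0.08 for Dnmt1, and BMH-21 minus CX-5461 at 8 h was 0.11 for Sycp1; at 4 h E2f6 had 0.16 and Dnmt1 0.02 under BMH-21, and Dnmt1 0.10 under CX-5461. After centring, E2f6 had 0.13 at 4 h of BMH-21, Dnmt1 had 0.01 after 4 h of CX-5461, and E2f6 had -0.10 and Dnmt1 -0.06 at 8 h of CX-5461, and the Sycp1 difference was 0.07. Quantile normalization gave E2f6 0.15 and Dnmt1 0.12 at 4 h of BMH-21, Dnmt1 0.44 and Ccdc79 -0.38 at 8 h of BMH-21, and Dnmt1 0.27 at 4 h of CX-5461. After 8 h of the latter it gave Taf7l -0.13, Tex13 -0.55, E2f6 -0.04, Max 0.03, Dnmt3a 0.19, Wfikkn1 -0.38 and 4933428G20Rik -0.20, and for the Sycp1 difference 0.03. Leaving out 1 library changed the sign of 21 values, 0 of them called and each at most 0.17 in size. They include E2f6 at 4 h of BMH-21 (-0.12 to 0.06), Max (-0.07 to 0.02) and Dnmt3a (-0.08 to 0.00) after 8 h of CX-5461, Dazl (-0.05 to 0.09) and Sycp3 (-0.06 to 0.12) after 2 h of BMH-21, and Tdrd1 (-0.16 to 0.16) after 8 h of it. The count of germline list genes called was 36 at 8 h of CX-5461, and 56 after centring and 64 after quantile normalization. Leaving out 1 library gave 14 to 31 in place of 19 at 2 h of CX-5461. Between the inhibitors it was 4 at 2 h, against 0 with no filter, 8 after centring, 10 with median-ratio factors, 9 after quantile normalization, 2 without the variance trend and 0 to 4 without 1 library, and 19 at 4 h, against 39, 32 and 36 under the 3 other scalings and 12 to 23 without 1 library. Over all genes, 2891 called at 2 h of BMH-21 became 4634 to 5285 under other scalings, and without 1 library 4096 at 2 h of CX-5461 became 2370 to 5592. Between the inhibitors, 585 at 2 h ranged from 361 to 2261 and 2617 at 4 h from 1687 to 6719. The cause of these differences was not tested.

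With the replicate block the counts of germline list genes called were 15, 49 and 60 under BMH-21 and 19, 55 and 36 under CX-5461 at 2, 4 and 8 h, and 4, 18 and 64 between the inhibitors, each within 1.5 times the count without it.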
